A study of Rattus norvegicus with 84 samples.

Results

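Proteasome genes were followed in the mRNA cargo of extracellular vesicles (EVs) from the brain and plasma of rats after ischemic stroke. The genes were all rows of the deposited mRNA count table whose symbol begins with Psm, a letter from a to g and a number. This rule found 48 of 18782 annotated genes. They were 7 alpha ring and 7 constitutive beta ring genes of the 20S core, 4 inducible or tissue-specific beta genes, 6 ATPase and 11 non-ATPase genes of the 19S cap, 5 other activators and an inhibitor, and 7 assembly factors. The remaining gene, Psmc3ip, is named for a binding partner of an ATPase and is not a subunit of the complex.

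EVs were taken from the plasma and from the ipsilateral (right) hemisphere of 21 male wild-type Sprague-Dawley rats. Of the 84 libraries of the series, the 42 long RNA libraries were used, 1 of brain and 1 of plasma for each rat, in 7 groups of 3 rats. Healthy rats were not operated. All other rats underwent transient middle cerebral artery occlusion. Control rats then received saline, and treated rats received human neural stem cells (hNSCs, a line from human fetal telencephalon) through the carotid artery 3 days after stroke. Control and hNSCs rats were sampled 4, 10, and 31 days after stroke. The human cells came from 1 line, and brain EVs were prepared from a small piece of tissue, whose place within the hemisphere is not given in the sources used here.

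The proteasome is the chamber in which cells degrade proteins that carry a ubiquitin chain. Alpha rings gate the 20S core and beta rings hold its proteolytic sites, while the 19S cap recognizes, unfolds, and feeds substrates. In immune cells and under interferon signaling, the catalytic subunits Psmb5, Psmb6, and Psmb7 are exchanged for Psmb8, Psmb9, and Psmb10, and the cap can be replaced by the PA28 activator made of Psme1 and Psme2. The resulting immunoproteasome shapes the peptides shown by MHC class I molecules. Blood cells are rich in it, whereas neurons mainly carry the constitutive form.

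Sequencing depth differed between the tissues. Brain libraries held 569136 to 15587216 counts on annotated genes (median 3746020), and plasma libraries held 6357675 to 31028559. The share of counts on annotated genes was 3.18% to 51.9% in brain and 45.1% to 75.6% in plasma. A brain library detected 14 to 48 of the 48 genes (median 40), and a plasma library 42 to 47 (median 45). Detection was lowest in brain hNSCs at 10 days, with a mean of 24.7 ± 12.2 genes (SD, n = 3), and it was 47 or 48 in the 6 brain libraries of day 31. Brain EVs carried neuron markers at 1315 to 6105 summed CPM over 8 genes, against 0 to 23.3 in plasma EVs. Plasma EVs carried platelet markers at 763 to 21569 summed CPM and T cell markers at 10.3 to 416, against 0 to 57.4 and 0 to 6.51 in brain EVs. Of the 5 T cell genes (Cd3e, Cd3d, Cd3g, Lck, and Cd2), 3 had no count in any brain library. CPM stands for TMM-normalized counts scaled to 1000000 per library, with factors from all 42 libraries where tissues are compared and from the 21 libraries of a tissue elsewhere.

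**Figure D1:**
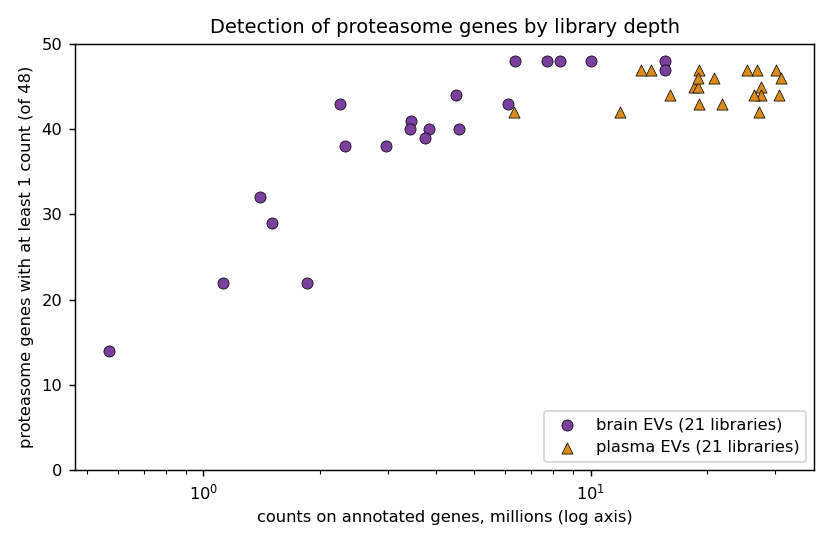
Number of proteasome genes with at least 1 count (of 48) against the counts on annotated genes in each of 21 brain and 21 plasma EV libraries, with depth on a log axis. Plasma libraries detected 42 to 47 genes, and brain libraries fell to 14 genes at the lowest depth of 569136 counts.

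Among the members, the highest mean levels in brain EVs belonged to Psmd4, a ubiquitin receptor of the cap, at 5.00 ± 4.74 FPKM (SD, n = 21), the alpha subunit Psma7 at 4.69 ± 4.09, the ATPases Psmc1 at 4.60 ± 4.19 and Psmc3 at 4.22 ± 3.67, and the large cap scaffold Psmd2 at 4.03 ± 3.91. The spread between libraries was as large as the differences between these neighbors, so their order is not fixed. In plasma EVs, Psme1 was highest by mean at 154 ± 55.5 FPKM (SD, n = 21), followed by Psma7 at 61.8 ± 20.1, Psmb1 at 47.2 ± 16.8, Psmd4 at 43.2 ± 15.04, and the immunoproteasome subunit Psmb8 at 33.0 ± 16.5. Psme1 ranked 167 among all annotated genes in plasma EVs and 800 in brain EVs. Deposited FPKM values are scaled to libraries that also hold unannotated transcripts, so tissues are compared below on the per-length share, a value in parts per 1000000 of the summed FPKM of all annotated genes in a library.

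The thymus-type subunit Psmb11 was not detected in plasma EVs. It had 0 counts over the 21 libraries, which allows up to 3 counts over them. In brain EVs it had counts only at day 31, with 42, 14, and 4 reads in controls and 10, 14, and 3 in hNSCs rats. Psmb11 lies beside Psmb5 in the rat genome, and how reads near the border were assigned is not given in the sources used here. Assembly chaperones were also sparse. Psmg2 had no count in 13 of 21 brain and 12 of 21 plasma libraries, and Psmd10 had none in 16 of 21 brain and 10 of 21 plasma libraries.

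The first comparison asked which parts of the complex were carried by EVs of each tissue. The complex as a whole took a like share in both. Its per-length share was 2314 to 5240 parts in brain EVs (median 3633) and 2472 to 5793 in plasma EVs (median 4217), and it was higher in plasma in 11 of 21 rats. The parts differed. The inducible or tissue-specific beta genes held a median of 51.1 parts in brain and 280 in plasma and were higher in plasma in all 21 rats. The group of other activators and inhibitor, at 435 and 875, was also higher in plasma in all 21. The alpha ring stood at 575 and 894, higher in plasma in 17 of 21 rats, and the constitutive beta ring at 470 and 737, higher in 19 of 21. The 19S cap ran the other way on this scale. Its ATPases had a median of 897 parts in brain against 479 in plasma, with plasma higher in 2 of 21 rats, and its non-ATPases had 1287 against 686, with plasma higher in 1 of 21. Assembly factors had medians of 99.1 and 90.1 and overlapped throughout.

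**Figure D2:**
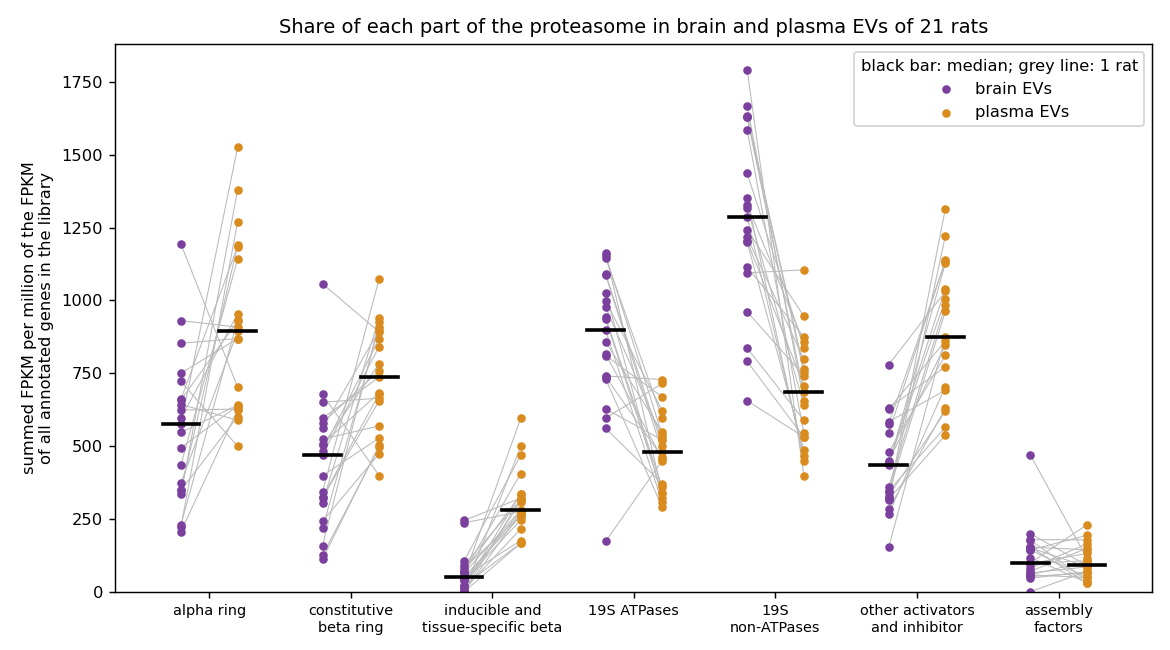
Summed FPKM of each part of the proteasome in parts per 1000000 of the FPKM of all annotated genes, for brain and plasma EVs of the same 21 rats, with grey lines joining the libraries of a rat and black bars at the medians. The core rings, inducible or tissue-specific subunits and activators lie higher in plasma, and both parts of the 19S cap lie higher in brain.

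In the edgeR fit over all 42 libraries, which works on counts and not per length, 37 of 48 members were called higher in plasma EVs and 1 in brain EVs. Called means a Benjamini-Hochberg adjusted p under 0.05 over all 16945 genes tested and a change over 1.5-fold. Of all genes tested, 25.3% were called higher in plasma and 29.0% higher in brain. The median difference of the members was −1.95 on the log2 scale (brain minus plasma), against 0.16 for all genes. All 7 alpha genes and all 7 constitutive beta genes were called higher in plasma, with class medians of −2.34 and −2.74. All 6 ATPases were too, by less, with a median of −0.90, and so were 6 of 11 non-ATPases, with a median of −0.89. On the per-length share, tested with limma on log2(share + 1), 20 of 48 members were called higher in plasma and 8 in brain. Of all 16945 genes, 2549 were called higher in plasma and 9649 in brain, and the median of all genes moved to 1.08. There the 19S ATPases had a median of 0.44, the other side of 0, but both scales placed them below the median of all genes, by 1.05 and by 0.64. For the alpha ring the distance below all genes was 2.50 on counts and 2.32 on shares, and for the beta ring 2.90 and 2.78.

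The 8 members called higher in brain on shares were the non-ATPases Psmd1, Psmd2, Psmd3, and Psmd13, the ATPases Psmc3 and Psmc5, and the alternative activators Psme3 and Psme4. Psmd3, a scaffold subunit of the cap, was the member called higher in brain on both scales. It ran from 56.7 to 159 CPM in brain (median 104) and from 28.4 to 112 in plasma (median 62.9), and plasma exceeded brain in 4 of 21 rats. Its difference was 0.74 (SE 0.18, adjusted p = 0.000621 by edgeR) on counts and 2.54 on shares. Psme3 and Psme4, which encode a nuclear PA28 ring and PA200, differed by 0.02 and 0.03 on counts, with SE of 0.17 and 0.19 and adjusted p = 1.00 by edgeR.

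By class median, the 4 inducible or tissue-specific beta genes had the largest difference between the tissues, −4.35 on counts and −3.35 on shares. These 4 include the barely detected Psmb11, at 1.94 on counts and 0.31 on shares. Psmb8 ran from 0 to 23.4 CPM in brain EVs (median 5.06) and from 78.3 to 301 in plasma EVs (median 146), with no overlap between the 21 libraries of each. Psmb9 had no count in 12 of 21 brain libraries and reached 35.3 CPM at most, while plasma ran from 26.3 to 159 (median 71.6), higher than brain in all 21 rats. Psmb10 ran from 0 to 32.9 CPM in brain (median 6.38) and from 0 to 111 in plasma (median 71.3). The edgeR differences were −5.33 (SE 0.46) for Psmb8, −7.46 (SE 0.74) for Psmb9, and −3.37 (SE 0.68) for Psmb10, with adjusted p = 4.46e-12, 7.74e-10 and 6.85e-05. The value of Psmb9 depends on the prior count, since brain groups without a count entered it, and its ratio of mean CPM was −4.17 on the log2 scale. Psme1 ran from 0 to 147 CPM in brain and from 356 to 911 in plasma, with no overlap (−3.70, SE 0.27, adjusted p = 8.70e-14 by edgeR). Psme2 ran from 0 to 66.8 and from 26.5 to 188, with a ratio of mean CPM of −3.75 on the log2 scale (edgeR adjusted p = 4.49e-09).

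Each inducible subunit was then set against the constitutive subunit that it replaces, as its percent of the summed FPKM of the pair in a library. Psmb8 made up a median of 21.8% of the Psmb8 and Psmb5 pair in 18 brain libraries with a value and 74.3% in 21 plasma libraries, where it exceeded Psmb5 in 20. Psmb10 made up 18.7% of its pair with Psmb7 in brain and 52.2% in plasma, and Psmb9 made up 0% of its pair with Psmb6 in brain and 45.5% in plasma. The median of 0% rests on brain libraries without a Psmb9 count, 12 of 21, of which 2 had no Psmb6 count either and gave no value. Over the summed FPKM of all brain libraries Psmb9 made up 19.9% of the pair, against 47.6% in plasma, and in the brain libraries of day 31 it ran from 5.86% to 20.6%. The plasma share was the higher in 15 of 18, 17 of 19, and 18 of 19 rats with both values. Constitutive Psmb5, Psmb6, and Psmb7 were themselves higher in plasma by count, at −1.84 (SE 0.49), −3.11 (SE 0.35) and −1.35 (SE 0.38) with adjusted p = 0.00147, 2.66e-09 and 0.00258 by edgeR. On the per-length share Psmb6 kept its call at −1.70, while Psmb5 at −0.98 and Psmb7 at −0.29 had adjusted p = 0.0842 and 0.532 by limma. The T cell and platelet markers given above moved with these differences. So did red cell markers, at 5499.8 to 312006 summed CPM in plasma and 84.5 to 1357 in brain. Liver markers also ran higher in plasma, with overlap, at 120 to 30598 against 11.3 to 228. The part of these sources in the differences was not tested.

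To show the DNA in front of these genes, 250 bases upstream of the start of Psmb8, Psmb10, and Psme2 are printed from RefSeq for build GRCr8. The stretches are chr20:4657032-4657281 on the minus strand, chr19:50743293-50743542 on the minus strand, and chr15:33052752-33053001 on the minus strand. They are shown because these 3 of the immunoproteasome genes held a match to a motif known from interferon signaling. Capitals mark the match, TTCNNNGAA (the form of a gamma-activated site) in Psmb8 and GAAA, any 2 bases, and GAAA again (the form of an interferon response element) in Psmb10 and Psme2, read 5′ to 3′ in the direction of the gene.
Psmb8: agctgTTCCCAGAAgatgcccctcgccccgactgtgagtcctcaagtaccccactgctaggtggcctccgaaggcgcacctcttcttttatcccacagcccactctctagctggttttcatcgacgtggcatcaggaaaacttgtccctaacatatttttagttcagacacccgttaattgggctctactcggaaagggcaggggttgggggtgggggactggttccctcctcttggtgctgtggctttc
Psmb10: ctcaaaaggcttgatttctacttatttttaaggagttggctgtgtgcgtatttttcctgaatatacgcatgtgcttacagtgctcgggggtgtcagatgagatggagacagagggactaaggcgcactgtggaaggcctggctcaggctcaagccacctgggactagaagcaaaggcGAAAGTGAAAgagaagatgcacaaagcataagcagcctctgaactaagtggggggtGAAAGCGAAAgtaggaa
Psme2: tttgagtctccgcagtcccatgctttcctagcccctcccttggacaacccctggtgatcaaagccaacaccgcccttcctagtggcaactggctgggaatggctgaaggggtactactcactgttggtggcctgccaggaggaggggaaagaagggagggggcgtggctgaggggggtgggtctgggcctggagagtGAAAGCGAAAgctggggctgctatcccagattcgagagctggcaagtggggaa

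These motifs were searched on both strands of the 250 upstream bases of 33469 RefSeq promoters, 43 of them of members. The interferon response element form was found in 3.41% of all promoters and in 5 of the 43 (Psma4, Psmb3, Psmb10, Psmd7, Psme2), with 2 matches in Psmb10. TTCNNNGAA was found in 7.67% of all and in 4 of the 43 (Psmb8, Psmc6, Psmd3, Psmd7). Neither was found in the same window before Psmb9 or Psme1. ACTTCCG, the core of an ETS site, was found in 5.22% of all and in 12 of the 43, none of them an immunoproteasome gene. TGACNNNGC, the form of an antioxidant response element, was found in 10.1% and in 7, and CCAAT in 34.0% and in 21. Psma7, Psmb11, Psmd6, Psmd12, and Psmd14 are named only. A match describes the letters of a window and does not show a bound site. Psmb8 and Psmb9 flank the peptide transporter gene Tap1 in the rat genome, and Psme1 and Psme2 lie on both sides of Emc9.

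Most of the genes with the largest counted differences outside the immunoproteasome belonged to the core and to assembly. The alpha subunits Psma6 and Psma2 ran from 0 to 26.3 and from 0 to 26.2 CPM in brain and from 89.3 to 225 and from 35.1 to 185 in plasma, with no overlap. Psma5 ran from 0 to 62.7 and from 37.0 to 138. Their edgeR differences were −4.13 (SE 0.51), −4.59 (SE 0.53) and −4.19 (SE 0.51) with adjusted p = 1.21e-08, 5.05e-09 and 1.82e-08, and on ratios of mean CPM they stood at −3.78, −3.18, and −2.62. Psmd10, an assembly chaperone also known as gankyrin, had a fitted difference of −6.57 (adjusted p = 0.00131), but it ran only from 0 to 5.09 CPM in brain and from 0 to 30.05 in plasma, and plasma exceeded brain in 10 of 21 rats. With the rat as a block, since both libraries came from the same animal, it was −5.08 (adjusted p = 0.0580 by edgeR). The block left 33 members called higher in plasma and 2 in brain, Psmd3 and the barely detected Psmb11. Of all genes tested, it called 4117 higher in plasma and 5776 higher in brain. Psmg4, another assembly chaperone, had −4.91 (adjusted p = 0.000274) with 0 to 53.1 and 0 to 53.6 CPM. In all, 12 members had a brain group without any count, and over the 47 members with plasma counts the median log2 ratio of mean CPM was −1.73.

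Transcript length moved with the tissue difference. A length index was taken as counts per FPKM relative to the median gene, so that 1 is the length of a median gene. The members were short, with class medians from 0.31 in the constitutive beta ring to 0.56 in the 19S non-ATPases. Over 16503 genes the difference between brain and plasma rose with the index (across genes, Pearson r = 0.31, Spearman rho = 0.35), and over 47 members r was 0.61 and rho 0.63. Genes share libraries and are not independent, so these values are descriptions. For indices from 0.25 to 0.5, the median difference was −1.57 over 2123 genes and −2.69 over 27 members, of which 20 lay below the median of all. From 0.5 to 1 it was −0.37 over 5579 genes and −1.23 over 14 members, of which 11 lay below. The part of transcript length in the tissue differences was not tested beyond these bins.

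**Figure D3:**
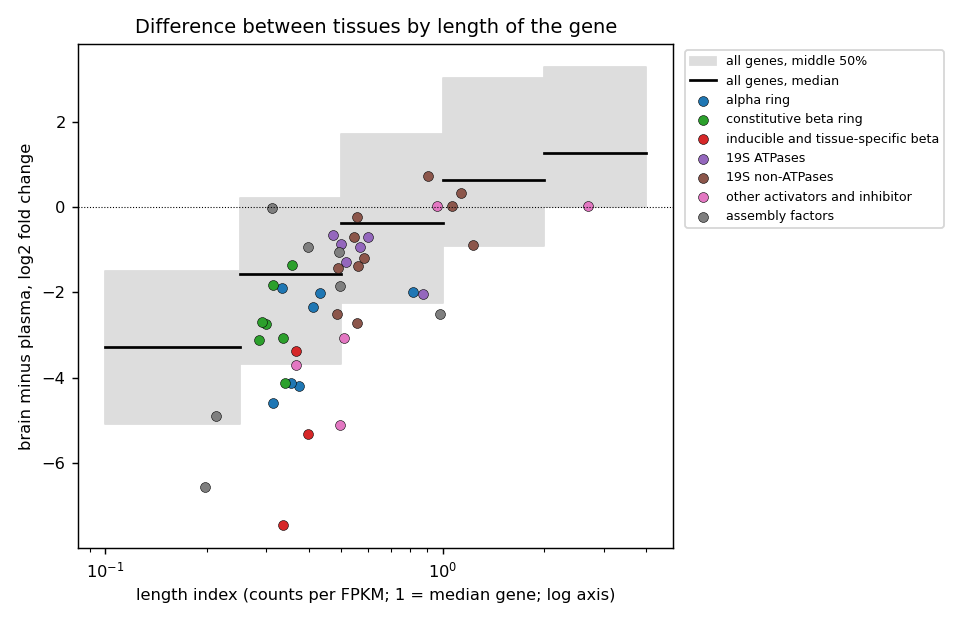
Brain minus plasma log2 fold change of each member (edgeR on counts) against its length index on a log axis, colored by part of the complex, with the median (line) and middle 50% (band) of all genes in 5 bins, the outer bins drawn to 0.1 and 4. Between 0.25 and 0.5, 20 of 27 members lie below the median of all genes of that length.

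The stroke comparisons asked whether proteasome mRNAs in brain EVs changed between healthy and control rats. No member was called by edgeR at 4, 10, or 31 days, where 0.861%, 0.572%, and 0.00689% of 14515 genes were called. At an unadjusted p under 0.05 there were 3, 5, and 3 of 47 members, against 14.8%, 12.7%, and 7.14% of all genes. DESeq2 called 2, 3, and 1 of 48 members, beside 5.40%, 3.76%, and 1.13% of all genes. Median differences of the members were 0.15, 0.40, and 0.52 on the log2 scale (control minus healthy), beside 0.05, 0.00, and 0.24 for all genes. Over the 7 brain groups together, 2.09% of genes had an adjusted p under 0.05 and no member did, while 8 of 47 members had an unadjusted p under 0.05, as did 16.8% of all genes. DESeq2 called 6 of 48 members over the 7 groups and 10.0% of all genes. Between control rats at day 31 and healthy rats, 19 members lay above and 1 below without overlap, beside 16.2% and 4.99% of all genes. The annotated share of counts was 38.2% ± 6.89 (SD, n = 3) in that group and 13.9% ± 6.91 (SD, n = 3) in healthy rats. limma on log2(FPKM + 1), which does not correct for that share, called 42 of 47 members at day 31 beside 57.0% of all genes and gave all 47 a positive difference (median 1.27). On the per-length share it called 2 of 48 members, Psmd10 and Psmb11, and 1.04% of all genes.

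Over the 6 planned comparisons between 2 brain groups, the smallest adjusted p of a member by edgeR was that of Psme1. Healthy rats had 23.7, 22.1, and 16.3 CPM. Controls had 172, 112, and 65.2 at 4 days, 20.5, 151, and 69.8 at 10 days, and 59.8, 105, and 41.5 at 31 days. The groups at 4 and 31 days lay wholly above healthy rats, and 1 library at 10 days did not. At 4 days 4 members lay wholly above healthy rats and 2 below, beside 10.8% and 8.06% of all genes. By edgeR the Psme1 differences were 2.49 (SE 0.77, adjusted p = 0.121), 1.96 (SE 0.76, adjusted p = 0.279), and 1.74 (SE 0.76, adjusted p = 0.600), none of them past the threshold. The 4-day difference was past it in 3 alternatives, with adjusted p = 0.0224 by DESeq2, 0.0320 by limma on log2(FPKM + 1), and 0.00999 by edgeR on the 6 libraries alone. On the per-length share it was 2.25 with adjusted p = 0.473 by limma, and the annotated share of counts was 23.5% ± 1.65 (SD, n = 3) in controls at 4 days beside the 13.9% of healthy rats. Microglia markers (10 genes) moved with it. Their summed CPM ran from 83.3 to 128 in healthy rats and from 596 to 1278, 223 to 1996, and 219 to 420 in controls at 4, 10, and 31 days, with no marker at 0 in a whole group. Other lists also separated controls at 4 days from healthy rats. Astrocyte markers ran from 3414 to 3768 against 1239 to 1435 summed CPM, and vascular markers from 379 to 631 against 138 to 273. Oligodendrocyte markers ran from 3891 to 6337 against 2618 to 3058, while neuron markers were lower, at 1964 to 3504 against 4691 to 5721. The part of any of these cell types in the Psme1 values was not tested. In such bulk libraries a change in the number of cells, or vesicles, of a type and a change in the RNA of each cannot be told apart.

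The other inducible genes were near the limit of detection in brain EVs. Psmb8 had 0, 3, and 0 counts in healthy rats and 56, 20, and 38 in controls at 4 days, 0, 63, and 36 at 10 days, and 80, 46, and 17 at 31 days. All libraries at 4 and 31 days lay above healthy rats. The adjusted p was 0.264, 0.249, and 0.729 by edgeR. Psmb9 had no count in healthy rats or in controls at 4 days, then 6, 86, and 0 counts at 10 days and 60, 34, and 34 at 31 days. Against a floor of 3 counts over the healthy group this is at least 48.4-fold and at least 13.4-fold higher, with adjusted p = 0.258 and 0.589 by edgeR, and 1 library held most of the 10-day counts. These bounds cover counting error only. DESeq2 called Psmb9 at 10 and 31 days (adjusted p = 1.30e-13 and 3.36e-11) and Psmb8 at 10 days (adjusted p = 0.0191). Its fitted Psmb9 differences, 22.3 and 20.5 on the log2 scale, rest on a healthy group without a count. Psme2 differed by 0.48, 2.95, and 1.21, Psmb10 by 0.49, 0.96, and 0.55, and their adjusted p was 0.628 or higher by edgeR. Constitutive Psmb5 differed by −0.54, 0.05, and 0.35, Psmb6 by −0.61, 0.51, and 0.94, and Psmb7 by 0.73, 1.36, and 1.54, with adjusted p of 0.774 or higher by edgeR.

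**Figure D4:**
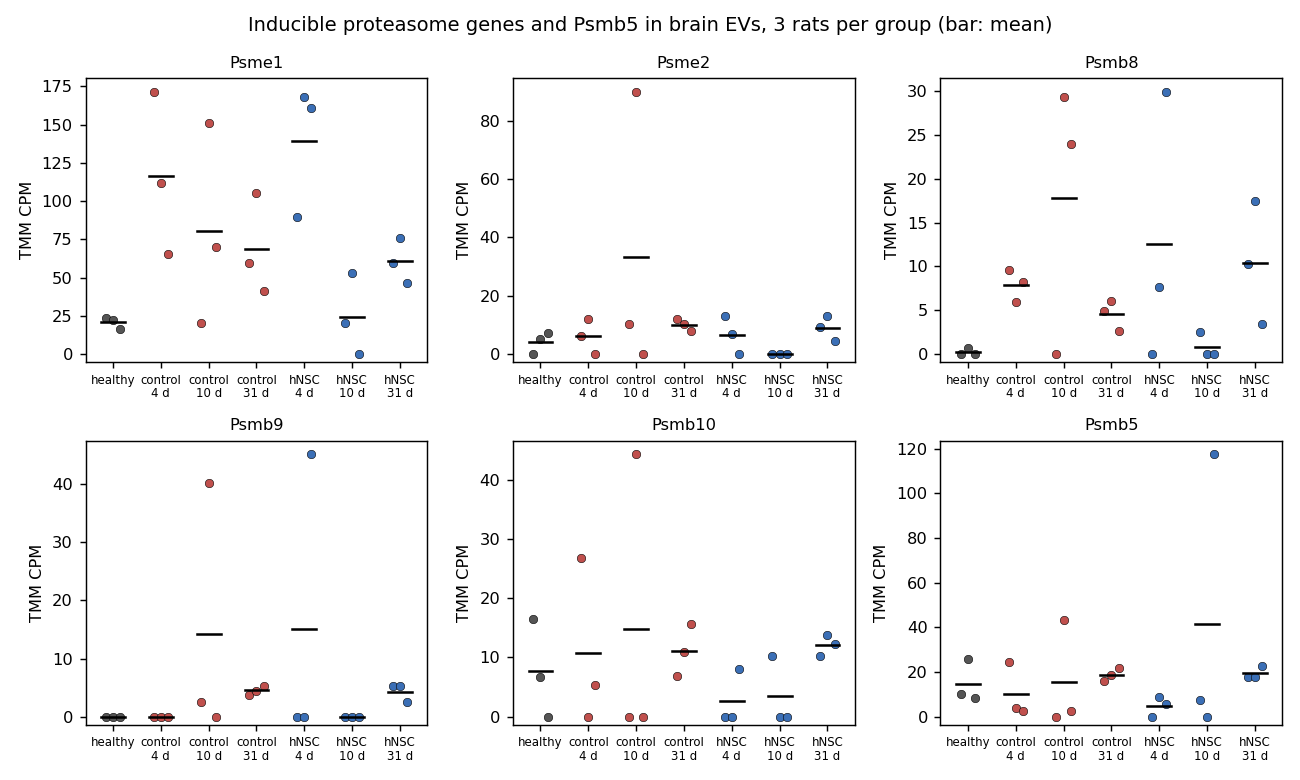
TMM CPM of Psme1, Psme2, Psmb8, Psmb9, Psmb10, and Psmb5 in brain EVs of each rat (points), by group of 3, with bars at the means. Psme1 is at 16.3 to 23.7 CPM in healthy rats and at 65.2 to 172 in controls at 4 days, and Psmb9 has no count in healthy rats.

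The largest fitted change at 4 days was that of Psmg4, which had 0, 34, and 14 counts in healthy rats and none in controls. That is at least 23.4-fold lower, with adjusted p = 0.167 by edgeR and 0.0490 by DESeq2. Psmd7, a non-ATPase of the cap, had the smallest unadjusted p at 10 days. Its values were 130, 99.2, and 83.3 CPM in healthy rats and 43.0, 38.7, and 33.9 in controls at 10 days, without overlap, and 124, 152, and 124 at 31 days. The 10-day difference was −1.43 (SE 0.47), with adjusted p = 0.205 by edgeR and 0.0469 by DESeq2. Of all genes, 5.48% lay wholly below healthy rats at that day. Over the 7 groups Psmd7 had adjusted p = 0.0567 by edgeR and 0.000454 to 0.0941 under other settings, the lowest by DESeq2. In 17 of 21 edgeR fits that left out 1 library it stayed over 0.05, at up to 0.162. It became 0.0267 without hNSCs replicate 2 of day 4 and 0.0493, 0.0435, and 0.0190 without hNSCs replicates 1, 2, and 3 of day 10. Pooling the 6 stroke groups against healthy rats, a comparison added after the values were seen, edgeR called 0.200% of genes and no member. At an unadjusted p under 0.05 there were 3 of 47 members and 12.5% of all genes, and DESeq2 called 3 of 48 members and 3.83% of all genes. Psme1 stood at 1.80 (SE 0.65, adjusted p = 0.197 by edgeR) in that comparison.

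The effect of hNSCs in brain EVs was read against control rats of the same day. At 4, 10, and 31 days edgeR called 0% of genes each time and thus no member. At an unadjusted p under 0.05 there were 6, 10, and 0 of 47 members, against 7.53%, 13.4%, and 0.0896% of all genes. DESeq2 called 3, 7, and 0 of 48 members, beside 1.43%, 4.17%, and 0.00597% of all genes. The difference of the hNSCs effect from that at 4 days was called in 0% of genes at 10 days and in 0% at 31 days, with no member by edgeR. Over both days 8 of 47 members and 10.9% of all genes had an unadjusted p under 0.05, and DESeq2 called 4 of 48 members and 2.75% of all genes. At 10 days, 9 of 47 members were above 0 and the median was −1.16, against −0.34 for all genes. The 3 hNSCs libraries of day 10 held 569136 to 2955945 annotated counts and detected 14 to 38 members. Replicates 2 and 3 were under 1500000 counts. Without replicate 1, which left only those libraries in the group, 2 members were called, and the share of all genes in that fit is not reported here. The part of depth in the lower values was not tested.

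The largest fitted change at 10 days was that of Psme2, with 24, 193, and 0 counts in controls and none in hNSCs rats, at least 55.6-fold lower (adjusted p = 0.293 by edgeR). Psmb6 had 12.4, 26.1, and 11.3 CPM in controls and 1.07, 0, and 0 in hNSCs rats, without overlap and with the same adjusted p. At that day 5.51% of all genes lay wholly below controls. Psme1 had 20.2, 53.2, and 0 CPM in the hNSCs group, a difference of −1.68 (SE 0.76, adjusted p = 0.351). Psmb9 was at 0 in all 3 hNSCs libraries, at least 23.6-fold lower than controls (adjusted p = 0.329), and Psmb8 had 7, 0, and 0 counts (adjusted p = 0.370). Psmb5 stood at 1.42 (adjusted p = 0.789), with 7.46, 0, and 118 CPM in the hNSCs libraries, the last of them far above the others. Psmb7 and Psmb10 differed by −2.46 and −1.98 with adjusted p = 0.378 and 0.782.

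At 4 days, Psmg4 had 0, 9, and 238 counts in hNSCs rats and none in controls, at least 128-fold higher with adjusted p = 0.498 by edgeR, and nearly all counts were in 1 library. Of the 47 members, 11 lay wholly below controls at that day and 0 above, beside 5.33% and 2.05% of all genes. They were Psma2, Psma3, Psma5, Psmc3, Psmc3ip, Psmd1, Psmd5, Psmd6, Psmd11, Psmd14, and Psme4. Psma5 had no count in hNSCs rats and 71, 14, and 72 in controls, at least 33.7-fold lower. The member median was −0.17, against −0.11 for all genes. The hNSCs libraries of day 4 held 1847441 to 3746015 annotated counts and detected 22 to 40 members. Controls of that day held 3428151 to 6105035 and detected 40 to 43. The part of depth in these lower values was not tested. Replicate 3, which held 238 of the Psmg4 counts, also held all 158 counts of Psmb9 in its group, at least 81.9-fold over controls (adjusted p = 0.522). Psme1 had 89.6, 168, and 161 CPM, within and near the 65.2 to 172 of controls (0.26, SE 0.73). Psmb8, Psmb10, Psme2, Psmb5, Psmb6, and Psmb7 differed by 0.67, −1.98, 0.12, −1.05, 1.02, and 1.06, and all 7 had an adjusted p of 1.00. At 31 days the groups were closest, with a member median of 0.04 against 0.00 for all genes. Psme1 had 59.5, 76.1, and 46.7 CPM (−0.18, SE 0.72), Psmb8 had 168, 178, and 28 counts against 80, 46, and 17 (1.18, SE 1.70), and the differences of Psmb5, Psmb6, Psmb7, Psmb9, Psmb10, and Psme2 lay between −0.15 and 0.11. Psmg2 had the largest fitted change, with 68, 32, and 28 counts in hNSCs rats against 37, 11, and 5.

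Plasma EVs had a higher depth, and here too no member was called by edgeR between control and healthy rats at 4, 10, or 31 days, where 0.0679%, 0%, and 0% of 14720 genes were called. At an unadjusted p under 0.05 there were 2, 4, and 2 of 47 members, against 5.86%, 5.605%, and 4.75% of all genes. DESeq2 called 0, 0, and 1 of 47 members, beside 5.88%, 7.85%, and 4.31% of all genes. The member medians were 0.01, −0.06, and −0.03 on the log2 scale, beside −0.12, −0.22, and −0.09 for all genes. Psme1, the highest member in plasma, had 689, 505, and 738 CPM in healthy rats and 464, 664, and 520 in controls at 4 days, 425, 434, and 660 at 10 days, and 676, 683, and 677 at 31 days, so the groups overlapped at 4 and 10 days and lay close together at 31. Its differences were −0.23, −0.35, and 0.08, each with an SE of 0.30.

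Psmb9 had 128, 41.2, and 114 CPM in healthy plasma and 41.6, 29.1, and 50.7 in controls at 4 days (−1.22, SE 0.50, adjusted p = 0.742 by edgeR). Psme2 had 123, 76.1, and 152 CPM in healthy rats and 61.3, 51.5, and 59.8 in controls at 10 days, without overlap (−1.03, SE 0.46, adjusted p = 0.750). Of all genes, 6.78% lay wholly below healthy rats at that day. Psmb8 differed by −0.72, −0.34, and −0.25, and Psmb10 by −0.19, 0.37, and −0.31. Constitutive Psmb5, Psmb6, and Psmb7 differed by 0.18, −0.72, and −0.44, by −0.02, 0.27, and 0.50, and by −0.07, −0.14, and −0.03, with adjusted p of 0.745 or higher for all 5 genes. Psmd7, a cap subunit, had 82.1, 71.6, and 94.6 CPM in healthy rats and 114, 194, and 157 in controls at 31 days, without overlap. That difference of 0.90 (SE 0.35) had adjusted p = 0.844 by edgeR and 0.0331 by DESeq2. Of all genes, 3.41% lay wholly above healthy rats at that day. The largest fitted changes were those of assembly chaperones. At 4 days Psmg3 had 0, 0, and 139 counts in controls against 255, 95, and 83 in healthy rats. Psmg2 had 299, 19, and 151 counts in healthy rats, none in controls at 10 days, at least 124-fold lower (adjusted p = 0.750), and 0, 39, and 0 at 31 days. Such swings were spread over groups, since Psmg2 had no count in 12 of 21 plasma libraries.

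Treatment with hNSCs was read against controls in plasma in the same way. edgeR called 0.00679%, 0%, and 0% of genes at 4, 10, and 31 days and no member. At an unadjusted p under 0.05 there were 3, 2, and 2 members, against 3.94%, 4.06%, and 8.57% of all genes. DESeq2 called 0, 1, and 1 of 47 members, beside 6.06%, 7.48%, and 10.7% of all genes. The change of the hNSCs effect from 4 days to 10 and to 31 days was called in 0.00679% of genes each and in no member by edgeR. Over both days 1 of 47 members and 14.1% of all genes had an unadjusted p under 0.05, and DESeq2 called 2 of 48 members and 15.1% of all genes. Psme1 had 489, 299, and 547 CPM in hNSCs rats at 4 days, 593, 406, and 513 at 10 days, and 790, 714, and 641 at 31 days, with differences from controls of −0.30, −0.01, and 0.07. Psme2 stood at 0.99 (SE 0.46, adjusted p = 0.834) at 10 days, with 76.9, 146, and 119 CPM and no overlap with controls. At that day 4.88% of all genes lay wholly above controls. Psmb5 had 29.1, 26.2, and 24.7 CPM at 4 days against 20.8, 82.0, and 70.1 (−1.11, SE 0.56, adjusted p = 0.814). Psmb6 and Psmb7 lay between −0.60 and 0.18, Psmb8 and Psmb9 between −0.42 and 0.53, and Psmb10 between −0.78 and 0.57, with adjusted p of 0.796 or higher. Psmg2 again had the largest fitted changes at 4 and 10 days, with no count at 4 days, at least 42.3-fold lower (adjusted p = 0.814), and 240, 52, and 113 at 10 days, at least 152-fold higher (adjusted p = 0.834). Psmg3 had 235, 48, and 0 counts in controls at 31 days and none in hNSCs rats, at least 80.9-fold lower (adjusted p = 0.522).

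Pooled over the 6 stroke groups, a comparison added after the values were seen, edgeR called 0.190% of genes and no member in plasma EVs, with 2 of 47 members and 10.3% of all genes at an unadjusted p under 0.05. DESeq2 called 0 members and 3.04% of all genes. All 18 stroke libraries lay above the 3 healthy libraries in Psmd7, as in 0.0213% of all genes.

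Psmf1 was the member whose plasma groups differed. It encodes PI31, a protein first described as an inhibitor of the 20S core and now also linked to proteasome transport in neurons. Healthy rats had 46.1, 27.8, and 58.5 CPM. Controls had 24.7, 20.97, and 7.85 at 4 days, 121, 133, and 84.0 at 10 days, and 59.0, 49.3, and 107 at 31 days. Rats given hNSCs had 51.1, 17.8, and 30.1 at 4 days, 133, 141, and 68.8 at 10 days, and 128, 206, and 122 at 31 days. Levels at 10 days thus lay above those at 4 days in both arms without overlap. So did 4.21% of all genes in controls and 5.28% in hNSCs rats. Over the 7 groups, 0.584% of genes had an adjusted p under 0.05, and among members this was Psmf1 alone (adjusted p = 0.0225 by edgeR). Controls at 10 days exceeded controls at 4 days by 2.66 on the log2 scale (SE 0.53, adjusted p = 0.0237), 1 called member of 47 beside 0.387% of all genes. In hNSCs rats the same step was 1.80 (SE 0.52, adjusted p = 0.307), where 0.476% of genes and no member were called, with 6 of 47 members and 3.00% of all genes at an unadjusted p under 0.05. DESeq2 called 2 members in each step, beside 9.61% of all genes in controls and 3.99% in hNSCs rats. Both steps between days were added after the values had been seen.

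The Psmf1 call was close to its threshold. The step in controls was not called by limma on log2(FPKM + 1), by limma on the per-length share, or by edgeR on the 6 libraries alone, with adjusted p = 0.0794, 0.0761, and 0.248. Over the 7 groups the adjusted p was 0.0501, 0.0564, and 0.0536 by edgeR without control replicates 1, 2, and 3 of day 4, 0.0530 without hNSCs replicate 1 of day 10, and 0.0659 without hNSCs replicate 2 of day 31. The step in controls had adjusted p = 0.0523, 0.0933, and 0.131 without control replicates 1, 2, and 3 of day 4 and 0.0709 and 0.0764 without replicates 1 and 2 of day 10, while its size stayed between 2.30 and 2.95. Red cell markers (7 genes) moved with it. Their summed CPM was 43469 to 79187 in healthy rats, 11678 to 21458 in controls at 4 days and 146991 to 156235 at 10 days, and in hNSCs rats it was 5499.8 to 12881 at 4 days, 103312 to 312006 at 10 days, and 194655 to 306215 at 31 days. T cell markers also separated the control groups, at 19.2 to 91.0 summed CPM at 4 days and 173 to 279 at 10 days. They stood at 219 to 358 in healthy rats. In hNSCs rats they overlapped, at 10.3 to 223 at 4 days and 34.5 to 351 at 10 days. Psmf1 kept its call when hemoglobin genes were left out of the counts. That setting changes the scaling of the libraries and keeps every Psmf1 count, so it cannot show which cells the Psmf1 reads came from. The part of red cell or T cell RNA in the Psmf1 values was not tested.

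**Figure D5:**
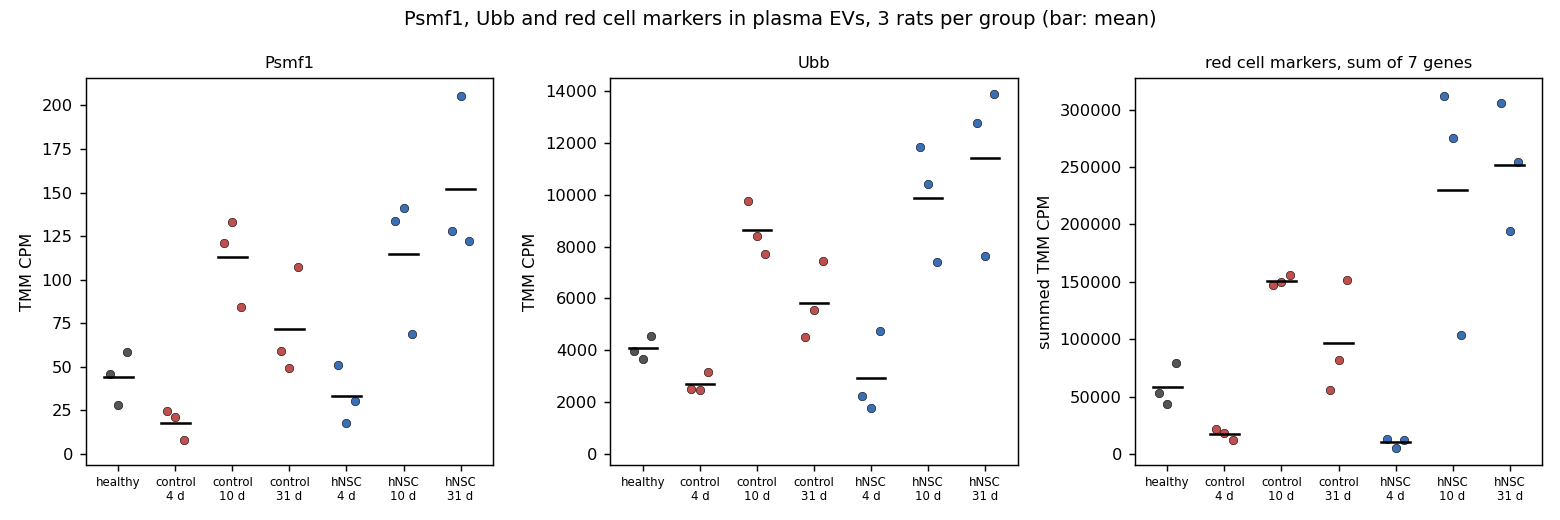
TMM CPM of Psmf1 and Ubb in plasma EVs of each rat (points, with bars at the means), by group of 3, beside the summed CPM of 7 red cell markers. All 3 are lower at 4 days than at 10 days in both arms, and Psmf1 in controls runs from 7.85 to 24.7 CPM at 4 days and from 84.0 to 133 at 10 days.

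Genes that work with the proteasome were taken from a list of 30, of which 26 were tested, and from 8 genes of antigen processing. In plasma EVs of controls, Ubb, a polyubiquitin gene, had 2483, 2457, and 3177 CPM at 4 days and 9756, 8424.5, and 7718 at 10 days, and in hNSCs rats it had 2241, 1757, and 4758 and then 11843, 10414.5, and 7405. The groups of the 2 days did not overlap in either arm. It rose by 1.67 (SE 0.36, adjusted p = 0.0378) in controls and by 1.76 (SE 0.36, adjusted p = 0.0218) in hNSCs rats. Leaving out libraries in turn, Ubb lost its call in controls whichever of the 6 libraries was left out (0.0694 to 0.174), and in hNSCs rats without replicate 1 or 2 of day 10 (0.123 and 0.0791) or of day 4 (0.162 and 0.127). Ddi2, a protease that processes the transcription factor of proteasome genes, was called in the pooled plasma comparison at −3.76 (SE 0.57, adjusted p = 0.00896), which rested on healthy replicate 2 at 3048 CPM against 80.8 and 64.5. Without that library it was 0.11 (adjusted p = 1.00).

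Between the tissues, 14 of 26 partners were called higher in plasma EVs and 3 in brain EVs, and 5 of 8 antigen processing genes were called higher in plasma. Of all genes tested, 25.3% were called higher in plasma and 29.0% in brain. With the rat as a block, 13 partners were called higher in plasma and 2 in brain, beside 4117 and 5776 of all genes. The block kept 5 antigen processing genes higher in plasma. The largest were Rps27a at −4.86 and Pomp, the core assembly factor, at −4.63 among partners, and B2m, the light chain of MHC class I, at −4.66 and the interferon response factor Irf1 at −2.85 among antigen processing genes. Ubqln2, Nfe2l1, and Ube3c were higher in brain by 1.02, 0.90, and 0.77. With the rat as a block Ube3c stood at 0.75 and was not called (adjusted p = 0.0706 by edgeR).

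Whether brain and plasma levels of a gene went together was examined over the 21 rats with the deposited FPKM. Of 3369 genes with a mean FPKM of at least 1 in both tissues, 26 were members, and no gene had an adjusted p under 0.05 in a permutation test with 100000 resamples. The median Pearson r was 0.22 over members and 0.12 over all, and r was above 0 for 22 of 26. On log2 of TMM CPM + 1 the medians were 0.08 and 0.02, and r was above 0 for 19 of 26. With FPKM centered within the 7 groups, the medians were −0.15 over members and 0.01 over all. There r was above 0 for 7 of 26, so the tally did not hold within groups. Psmd8 had r = 0.62 (p = 0.00145, adjusted p = 0.281, permutation test) and Spearman rho = 0.66 (p = 0.00146), and r = 0.64 without the 2 rats farthest from the brain median. Centered within groups it had r = 0.40 (p = 0.0723, adjusted p = 0.565, permutation test) and rho = 0.47. Psmd7 had r = 0.57 (p = 0.00581, adjusted p = 0.393, permutation test) and rho = 0.58 (p = 0.00621), and r = −0.02 once levels were centered within the 7 groups, so it did not hold within groups. Psme1, Psmb6, Psmb7, and Psmb5 had r of 0.30, 0.35, 0.007, and −0.24. Psmb8, Psmb9, Psmb10, and Psme2 were under the level limit in brain.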

How the data were processed

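RNA of plasma EVs (isolated by size exclusion chromatography) and brain EVs was made into stranded total RNA libraries and sequenced. Reads were aligned by the authors with Bowtie2 to Rnor_6.0. One deposited table holds raw counts per gene, and another holds FPKM that the authors computed with StringTie. The counting tool, its strand setting, and versions are not given in the sources used here. The tables also list 7855 unannotated new genes, which were left out. Groups came from the sample labels, and the members and gene lists were chosen with earlier results of these data known.

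Counts were tested with edgeR 4.0.16 (quasi-likelihood, TMM, filterByExpr) in R 4.3.3, in 1 model of 7 groups per tissue (14515 brain and 14720 plasma genes) and 1 of both tissues (16945 genes). The common biological coefficient of variation was 0.844 in brain and 1.49 in plasma. Genes were called at a change over 1.5-fold with p under 0.05 after Benjamini-Hochberg correction. The SE of an edgeR difference is its absolute log2 value divided by the square root of its F statistic. It is unreliable where a group has no count. p-values rest on the spread within groups of 3 rats, pooled over all groups of the model and moderated over genes. DESeq2 1.42.0 and limma 3.58.1 on log2(FPKM + 1), with a pseudocount of 1 that understates changes of low genes, were alternatives (DESeq2 shares are of all genes with a p-value), as were other filters, gene sets, and leaving out each library. A group at 0 was set to a floor of 3 counts over its libraries, for counting error only. Permutation tests were two-sided with 100000 resamples (Python 3.11.15, scipy 1.17.1). The fits were tested on simulated data. Promoters are from RefSeq, build GRCr8, and were not placed on Rnor_6.0.

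Genes named were the 5 members highest in each tissue by mean FPKM, the catalytic pairs, Psme1 and Psme2, called members up to the 8 with the largest change, the largest change where none was called, members not detected, and called partner genes up to 5 per comparison, of which some are not reported here. Psmd7, Psmd8, Psmd3, Psme3, Psme4, and others outside this rule were named after their values were seen. Same-numbered replicates did not deviate together (median correlation 0.002 in brain and −0.01 in plasma), so their numbers were not used as pairs.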

Additional observations from a re-analysis of the deposited data

Results flagged for a closer look

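The change of Psmf1 from healthy rats in plasma EVs of control rats differed between days. It stood at −1.31 at 4 days and 1.35 at 10 days on the log2 scale, and the difference of 2.66 (SE 0.53) had adjusted p = 0.0237 by edgeR, in a comparison added after the values were seen. By limma on log2(FPKM + 1), by limma on the per-length share, and by edgeR on the 2 groups alone it was not past the threshold (adjusted p = 0.0794, 0.0761, and 0.248). All 3 libraries of day 10 lay above all 3 of day 4, as in 4.21% of all genes.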

How the results depend on the processing

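No member was called in most comparisons between groups, and the other tools called a few. DESeq2 called 6 members over the 7 brain groups, 2, 3, and 1 between controls and healthy rats in brain EVs at 4, 10, and 31 days, 3 over the pooled stroke groups, 3 and 7 for hNSCs at 4 and 10 days, and 4 for the change of the hNSCs effect between days. In plasma EVs it called 1 in controls at 31 days, 1 for hNSCs at 10 days, 1 at 31 days, 2 for the change between days, and 2 for each step from 4 to 10 days. The shares of all genes that DESeq2 called are given above with each of these comparisons. limma on log2(FPKM + 1) called 1 brain member at 4 days (1.75% of all genes) and 42 at 31 days (57.0%), and on the per-length share 2 at 31 days. A fit of the 2 groups alone called 1 in brain at 4 days (4.30% of all genes). The Psmf1 step in controls was not called by limma on FPKM, by limma on the share, or by the fit of 2 groups (0 members each, adjusted p = 0.0794, 0.0761, and 0.248). Leaving out 1 library gave 0 to 1 members over the 7 brain groups, 0 to 2 for hNSCs at 10 days in brain, 0 to 1 over the 7 plasma groups, and 0 to 1 for the control step. The shares of all genes called in these fits are not reported here.

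The paired fit with replicate number as a block called 0 members over the 7 plasma groups (Psmf1 adjusted p = 0.0534) and changed no other call within a tissue. Correlations of same-numbered libraries fell as low as −0.213 in brain and −0.524 in plasma, so the numbers are not shown to pair rats. With the rat as a block, 2 members were called higher in brain, beside 5776 of all genes tested. On the share, 20 members were called higher in plasma and 8 in brain, beside 2549 and 9649 of 16945 genes. Other settings gave 33 to 39 and 1 to 2, beside 3925 to 5435 and 4890 to 5991 of all genes tested. Over the count-based settings the median of all genes lay between −0.09 and 0.50 and that of members between −2.06 and −1.83, while on the share they were 1.08 and −0.43. The brain minus plasma value of Psmd2 changed sign under DESeq2, −0.0841 against 0.03, and the Psmd7 correlation between tissues became −0.0241 when centered within groups. The causes were not tested. The 4 steps and pooled comparisons, the share scale, and the omission of shallow libraries were added after the data were seen. Brain depth limits what can be detected, since 3 brain libraries held under 1500000 annotated counts.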
